A study of Mus musculus with 9 samples.

Results

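The 10 genes described here encode the receptor RANK, its soluble decoy and the proteins that act directly below the receptor: Tnfrsf11a, Tnfrsf11b, Traf1, Traf2, Traf3, Traf5, Traf6, Map3k14, Birc2 and Birc3. They were taken by gene symbol from a table of 24505 genes, and each was found in exactly 1 row. Nascent transcription was measured with GRO-seq, or global run-on sequencing, in which polymerases already on the DNA extend labelled RNA in isolated nuclei, in organoids, or mini-guts, grown from mouse duodenum. There were 3 cultures with 2 libraries each. RANKL is labelled as the intestinal M cell, which takes up particles from the gut lumen for immune cells. ENRI is labelled as enterocyte and WENRC as intestinal stem cell. No strain, age, genotype or dose is given in the labels, which also do not spell out the culture names. Mouse 1 or mouse 2 is named for each ENRI and WENRC library, whereas RANKL has replicate numbers and no mouse. The histone mark H3K27me3, laid down by the Polycomb complex PRC2, was followed by ChIP-seq in 1 WENRC library and in RANKL, whose 2 libraries the authors merged. All 3 cultures are whole organoid cultures, so that fewer cells of a type and less RNA per cell cannot be told apart in any value below.

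RANK is a receptor of the tumour necrosis factor family. Its ligand, RANKL, is encoded by Tnfsf11 and is made in the gut by stromal cells under the epithelium of lymphoid follicles, where it induces M cells. Osteoprotegerin, the product of Tnfrsf11b, binds the ligand without passing on a signal. Inside the cell the receptor recruits TRAF adaptors. Traf6 feeds the canonical NF-kB and MAP kinase branches. Traf2, Traf3 and the ubiquitin ligases encoded by Birc2 and Birc3 form a complex that keeps the kinase NIK (Map3k14) low until the receptor is engaged. NIK then drives processing of the Nfkb2 product and the non-canonical branch through Relb.

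Each GRO-seq value is a normalized log2 value of the authors for a whole gene. How these values were transformed is not given in the sources used here. Changes of the called genes among the 10 were smaller on this scale than in the authors' deposited table. Tnfrsf11a, for 1, had 2.82 over ENRI against 3.17 there. The gap was widest for Traf1, which had the lowest values of the 10 (1.02 against 3.86). Tnfrsf11b over ENRI, not called, went the other way (3.33 against 2.90). Errors are SDs of 2 libraries, and nothing in the labels says that the 2 RANKL libraries came from separate animals. Replicates were closest in RANKL and furthest apart in ENRI, with an SD of their difference over the 16563 tested genes of 0.220 against 0.699, and 0.421 for WENRC. The 9 M cell markers of the list used here were high in RANKL (log2 of the summed values 12.54 and 12.69, against 9.10 to 10.10 in ENRI and 9.39 to 9.50 in WENRC), with 9 called higher than in ENRI and 8 higher than in WENRC. Of 7 stromal markers, 6 (Col1a1, Col1a2, Col3a1, Dcn, Lum and Pdgfra) were below the filter on low values. The seventh, Pdgfrb, had 9.21 and 9.26 in RANKL, 6.90 and 7.68 in ENRI and 7.12 and 6.44 in WENRC. Pdgfrb was called higher by limma in RANKL than in ENRI and than in WENRC. The 7 leukocyte markers had summed values of 8.36 and 8.39 in RANKL, 8.0 and 8.35 in ENRI and 8.65 and 8.88 in WENRC, and 0 of the 5 tested were called by limma in RANKL against ENRI or WENRC (1 was higher in WENRC than in ENRI). Per the file header, the RANKL libraries are combined reads of a repeat sequencing and the others are not, so that this repeat run cannot be told apart from the culture itself.

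The start sites of 9 of the 10 genes were matched by symbol in RefSeq (GRCm38.p6). The 250 bases before the start are shown for the receptor and for Traf3, which held the 1 motif match. They are also shown for Traf1, with H3K27me3 regions of both directions, and for Birc3. Like the receptor, Birc3 was called in all 3 comparisons of cultures with all libraries in 1 fit. Each reads 5′ to 3′ along the gene's strand and ends at the base before the start. Capitals mark a match to the NF-kB (kB) consensus on either strand.
Tnfrsf11a: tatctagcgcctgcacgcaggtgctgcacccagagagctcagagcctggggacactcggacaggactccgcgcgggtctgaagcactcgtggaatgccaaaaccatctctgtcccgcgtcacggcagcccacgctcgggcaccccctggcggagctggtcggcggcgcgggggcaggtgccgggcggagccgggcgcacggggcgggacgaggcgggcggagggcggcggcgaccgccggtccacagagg
Traf3: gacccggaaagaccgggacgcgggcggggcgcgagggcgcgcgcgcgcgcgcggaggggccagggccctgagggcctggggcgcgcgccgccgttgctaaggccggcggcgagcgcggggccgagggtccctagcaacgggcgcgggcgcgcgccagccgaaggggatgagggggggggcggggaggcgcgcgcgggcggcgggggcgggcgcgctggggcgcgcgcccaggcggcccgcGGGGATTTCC
Birc3: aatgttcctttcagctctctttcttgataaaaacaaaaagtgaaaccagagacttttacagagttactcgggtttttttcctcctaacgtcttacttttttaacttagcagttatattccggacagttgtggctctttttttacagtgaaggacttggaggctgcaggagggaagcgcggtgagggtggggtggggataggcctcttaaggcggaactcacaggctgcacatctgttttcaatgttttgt
Traf1: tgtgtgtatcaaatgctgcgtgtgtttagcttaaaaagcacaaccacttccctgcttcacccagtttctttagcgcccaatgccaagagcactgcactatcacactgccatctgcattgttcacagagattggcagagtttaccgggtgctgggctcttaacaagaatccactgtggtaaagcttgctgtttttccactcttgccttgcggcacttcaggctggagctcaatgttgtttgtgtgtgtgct
These come from windows that run 250 bases before and 50 bases after the start: chr1:105780473-105780772 on the plus strand for Tnfrsf11a, chr12:111166120-111166419 on the plus strand for Traf3, chr9:7873121-7873420 on the minus strand for Birc3 and chr2:34961723-34962022 on the minus strand for Traf1. Over the 300 bases, the Tnfrsf11a promoter had a GC content of 76.7% and a ratio of observed to expected CpG of 0.976, and that of Traf3 had 84.0% and 1.20. Both are rich in CpG against the median of 0.387 over 32544 promoters (quartiles 0.177 and 0.751). Birc3 had 43.0% GC and a CpG ratio of 0.516, and Traf1 had 48.7% and 0.225. Both CpG ratios lay between the quartiles, while the GC content of Birc3 was below the lower quartile of 46%. Only the Traf3 promoter among the 9 held a kB match (GGGGATTTCC, 10 bases before the start on the plus strand), and 4.53% of all promoters did. A match describes letters in this window and no binding was measured.

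Tnfrsf11a, the gene of RANK itself (NM_009399, mm9 chromosome 1, 107677300 to 107744558), was transcribed at a high and nearly equal level in both RANKL libraries. Its values were 12.42 and 12.43 in RANKL, 9.76 and 9.45 in ENRI and 10.25 and 10.29 in WENRC. Both RANKL libraries lay above all 4 others, and the ENRI and WENRC libraries did not overlap. The log2 change was 2.82 over ENRI (7.05-fold on this scale; SE 0.15, limma FDR 0.00104) and 2.15 over WENRC (4.45-fold; SE 0.15, limma FDR 0.00181). By size of the rise it stood at place 103 of 16563 genes over ENRI and 236 over WENRC. Leaving out either RANKL library ended the call over WENRC (limma FDR 0.0562 without RANKL 1 and 0.0569 without RANKL 2), with changes of 2.16 and 2.15. WENRC was higher than ENRI by 0.66 (SE 0.15, limma FDR 0.0396). That call was lost with the replicate number as a block in all 6 libraries (limma FDR 0.0718), where RANKL has a number and no mouse. With the 4 ENRI and WENRC libraries alone it was lost without a block (0.128) and with the mouse as a block (0.151). Leaving out either WENRC library also ended it. Leaving out either RANKL library is in effect the fit of those 4 libraries, since the remaining RANKL library adds nothing to the estimate of spread.

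Tnfrsf11b, the decoy (NM_008764, chromosome 15, 54082174 to 54110039), had values of 10.85 and 10.82 in RANKL, 9.10 and 5.91 in ENRI, and 8.17 and 8.48 in WENRC. RANKL was highest in both libraries, while the 2 ENRI libraries lay on either side of WENRC. WENRC against ENRI gave 0.82 (SE 0.93, limma FDR 0.608). This change turned to -0.78 without ENRI 2 and was 2.42 without ENRI 1, each against the other ENRI library alone. The change was 3.33 over ENRI (SE 0.93, limma FDR 0.0539) and 2.51 over WENRC (SE 0.93, limma FDR 0.140), and neither passed the test with the 6 libraries in 1 fit. With only the 4 RANKL and WENRC libraries, the same 2.51 passed (limma FDR 4.70e-05). Leaving out either ENRI library is in effect this same fit, since the remaining ENRI library adds nothing to the estimate of spread. In the authors' deposited table the change over WENRC was 2.89 (adjusted p 4.7e-54) and that over ENRI 2.90 (adjusted p 0.198). The change over ENRI was 4.93 without ENRI 1 and 1.73 without ENRI 2, again against the other ENRI library alone. The M cell marker Anxa5 had a like split in ENRI, with 9.08 and 6.13. The summed M cell markers were 10.10 in ENRI 1 and 9.10 in ENRI 2. Prnp, Marcksl1, Ccl9 and Tnfaip2 of the same list were also lower in ENRI 2. Gp2 (2.56 and 3.72), Spib (5.12 and 5.38), Sox8 (2.57 and 2.83) and Ccl20 (7.78 and 8.05) were higher there. The list median was 5.13 in ENRI 1 and 5.38 in ENRI 2. The part of M cells in the Tnfrsf11b values was not tested.

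**Figure D1:**
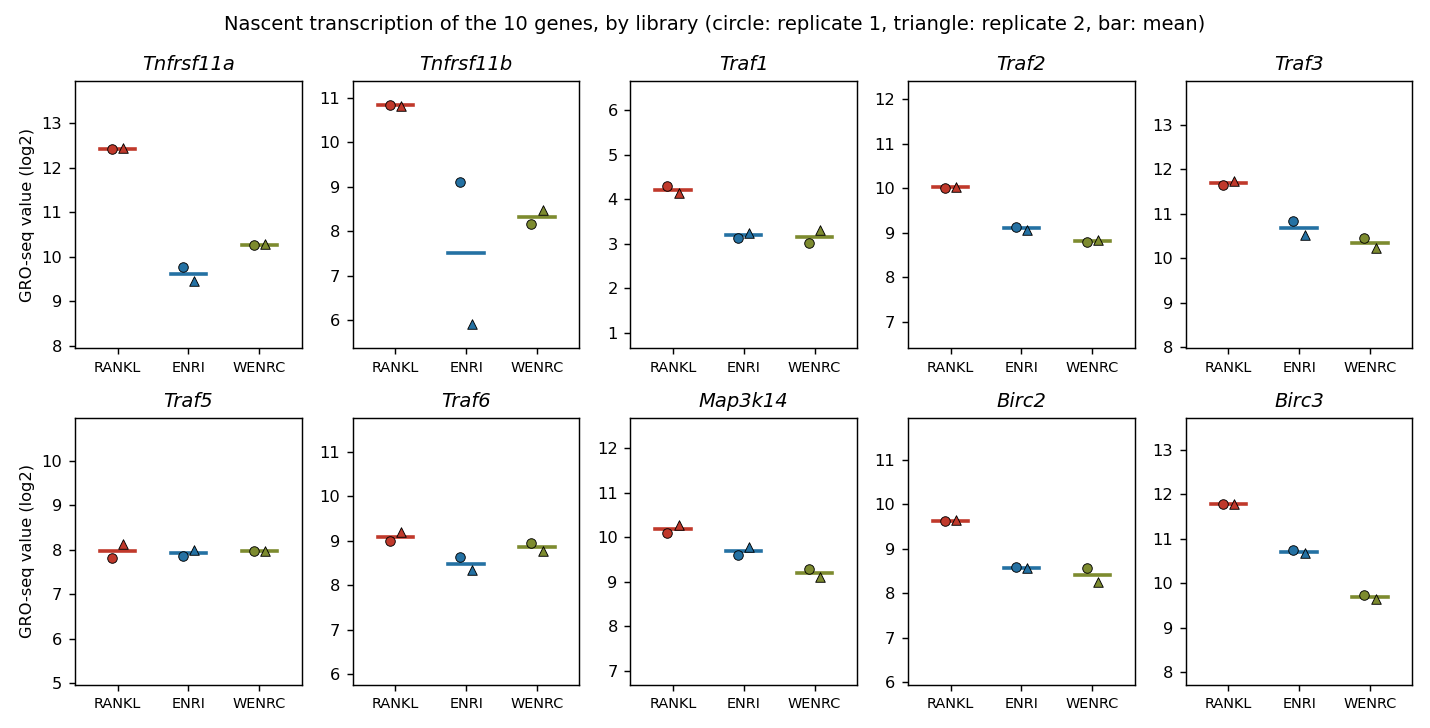
GRO-seq values (log2, y axis, each panel spanning the same range) of the 10 genes in the 6 libraries, by culture; circles are replicate 1, triangles replicate 2 and bars the mean of 2. RANKL lies above both other cultures in every panel except Traf5, and the 2 ENRI libraries of Tnfrsf11b stand at 9.10 and 5.91.

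Of the adaptors, Traf2 and Traf3 were both higher in RANKL than in the other cultures. Traf2 (NM_001290413, chromosome 2, 25373502 to 25402460), the adaptor that brings the ubiquitin ligases to the receptor, had 10.01 and 10.03 in RANKL, 9.14 and 9.06 in ENRI and 8.79 and 8.84 in WENRC. The rise was 0.92 over ENRI (SE 0.12, limma FDR 0.00738) and 1.20 over WENRC (SE 0.12, limma FDR 0.00522). Traf3 (NM_001286122, chromosome 12, 112404581 to 112505366), which holds NIK for degradation, had 11.64 and 11.73 in RANKL, 10.84 and 10.53 in ENRI and 10.47 and 10.24 in WENRC. It rose by 1.0 over ENRI (SE 0.17, limma FDR 0.0134) and by 1.33 over WENRC (SE 0.17, limma FDR 0.00816). Traf2 and Traf3 lost their calls over both cultures without either RANKL library. Their calls over WENRC were also lost without either WENRC library. For both genes the 3 cultures did not overlap and stood in the order RANKL, ENRI, WENRC, but WENRC and ENRI did not differ past the threshold (changes of -0.28 and -0.33, limma FDR 0.182 and 0.225). Traf3 overlaps the listed gene 4930595D18Rik, and strand handling is not given in the sources used here, so its value may hold reads of that gene.

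Traf1, an adaptor that joins Traf2 complexes and is a known NF-kB target, was the least transcribed of the 10 (NM_001326601, chromosome 2, 34797270 to 34817292). It had 4.30 and 4.14 in RANKL, 3.14 and 3.25 in ENRI and 3.02 and 3.32 in WENRC. Only the RANKL libraries passed the filter on low values, so that Traf1 entered the test through the culture in which it is high. The change was 1.02 over ENRI (SE 0.19, limma FDR 0.0169) and 1.06 over WENRC (SE 0.19, limma FDR 0.0211). The second was 0.94 with libraries recentred on their upper quartiles and missed the threshold (limma FDR 0.0516). It also missed the threshold without WENRC 1 (0.131) or WENRC 2 (0.0944). In the authors' deposited table the changes were 3.86 over ENRI (adjusted p 0.00335) and 4.31 over WENRC (adjusted p 0.00353).

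Traf5 and Traf6 were not called in any of the 3 comparisons with the 6 libraries in 1 fit. Traf5 (NM_011633, chromosome 1, 193821084 to 193916480), a relative of Traf2, had 7.80 and 8.12 in RANKL, 7.86 and 8.0 in ENRI and 7.97 in both WENRC libraries, and the 3 cultures overlapped. Its change was 0.03 over ENRI (95% interval -0.38 to 0.45) and -0.01 over WENRC (-0.43 to 0.41). These intervals leave out a change as large as those of Traf2, Traf3, Birc2 and Birc3. Traf6 (NM_001303273, chromosome 2, 101518577 to 101541825), the adaptor of the canonical branch, had 8.99 and 9.19 in RANKL, 8.63 and 8.33 in ENRI and 8.94 and 8.78 in WENRC. Its change was 0.61 over ENRI (95% interval 0.20 to 1.02, limma FDR 0.0525) and 0.23 over WENRC (-0.18 to 0.65, limma FDR 0.421). The change over ENRI passed with upper quartile recentring (limma FDR 0.0288) and with quantile normalization (0.0258). It was 0.76 without ENRI 1 and 0.46 without ENRI 2, where the other ENRI library stood alone. WENRC against ENRI gave 0.38 (SE 0.17, limma FDR 0.185). That change was 0.53 without ENRI 1 and 0.23 without ENRI 2.

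Map3k14, the gene of NIK (NM_016896, chromosome 11, 103081078 to 103128715), was higher in RANKL than in WENRC. It had 10.10 and 10.27 in RANKL, 9.61 and 9.77 in ENRI and 9.28 and 9.11 in WENRC, in that order with no overlap. The rise over WENRC was 0.99 (SE 0.15, limma FDR 0.0127). This call was lost without RANKL 1 (0.122), RANKL 2 (0.171), WENRC 1 (0.0699) or WENRC 2 (0.0986). The changes of RANKL over ENRI (0.50, SE 0.15, limma FDR 0.0603) and of WENRC over ENRI (-0.50, SE 0.15, limma FDR 0.0716) did not pass. Of these, RANKL over ENRI passed with upper quartile recentring (limma FDR 0.0412) and with quantile normalization (0.0385). The change of RANKL over ENRI was 0.41 without ENRI 1 and 0.58 without ENRI 2. That of WENRC over ENRI was -0.58 and -0.41. In each case the other ENRI library stood alone.

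Birc2 and Birc3 encode the ubiquitin ligases cIAP1 and cIAP2 and lie next to each other on chromosome 9 (NM_007465, 7818226 to 7837057, and NM_007464, 7848701 to 7873170). Both rose in RANKL, and Birc3 was also called between ENRI and WENRC. Birc2 had 9.61 and 9.63 in RANKL, 8.58 and 8.56 in ENRI and 8.56 and 8.25 in WENRC, with rises of 1.05 over ENRI (SE 0.15, limma FDR 0.00937) and 1.22 over WENRC (SE 0.15, limma FDR 0.00816). Birc3, itself a known NF-kB target, had 11.79 and 11.78 in RANKL, 10.74 and 10.69 in ENRI and 9.74 and 9.66 in WENRC. The 3 cultures stood apart by about the same amount from RANKL to ENRI and from ENRI to WENRC, and no libraries overlapped. Birc3 rose by 1.07 over ENRI (SE 0.12, limma FDR 0.00490) and by 2.09 over WENRC (SE 0.12, limma FDR 0.00144), and fell by 1.02 in WENRC against ENRI (SE 0.12, limma FDR 0.0109). The last call held with the replicate number as a block in all 6 libraries (limma FDR 0.0269), where RANKL has a number and no mouse. With the 4 ENRI and WENRC libraries alone it was lost without a block (0.0670) and with the mouse as a block (0.0831). Leaving out either WENRC library also ended it. Leaving out either RANKL library is in effect the fit of those 4 libraries, since the remaining RANKL library adds nothing to the estimate of spread. The rises of Birc2 and Birc3 over both cultures lost their calls without either RANKL library. That of Birc2 over WENRC also lost its call without WENRC 2. Within each library Birc3 exceeded Birc2, per kb of gene, by 1.80 and 1.77 in RANKL, 1.78 and 1.75 in ENRI, and 0.81 and 1.03 in WENRC. The margin was thus alike in RANKL and ENRI and smaller in both WENRC libraries. The 2 genes are paralogs, and how reads matching both were counted is not given in the sources used here.

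**Figure D2:**
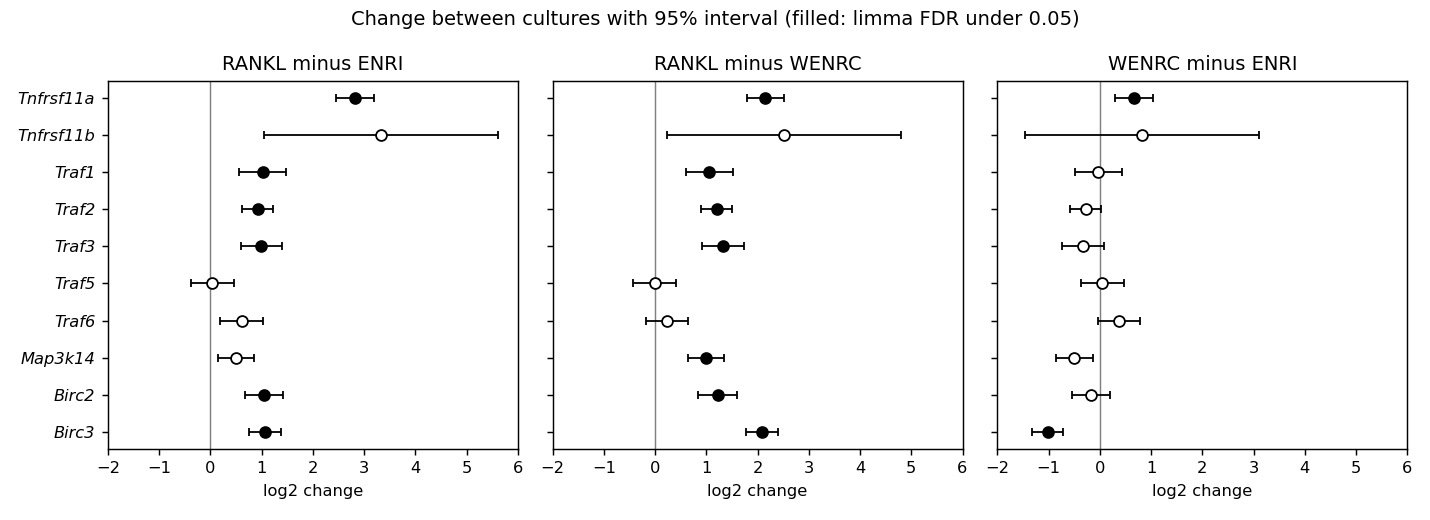
Log2 change (x axis) of each gene in the 3 comparisons, from limma with 6 libraries; bars are 95% intervals and filled points have a limma FDR under 0.05. The wide bars of Tnfrsf11b follow its 2 ENRI libraries, and Traf5 sits at 0.03, -0.01 and 0.04.

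Compared per kb of gene, the levels of the 10 genes stood in a different order in each culture. Birc3 was first in all 3, at 7.17 ± 0.00 in RANKL, 6.10 ± 0.04 in ENRI and 5.08 ± 0.06 in WENRC (log2 level per kb, SD, n = 2). Tnfrsf11a came second in RANKL at 6.35 ± 0.01 and at place 3 in WENRC at 4.20 ± 0.03, where it overlapped the next gene, Birc2 (4.17 ± 0.22). In ENRI it was at place 7 with 3.54 ± 0.22, below Traf6 (3.94 ± 0.21) and overlapping Tnfrsf11b (2.71 ± 2.26). In RANKL the decoy was at place 3 with 6.03 ± 0.02, and Birc2, Traf2 and Traf3 followed at 5.39 ± 0.01, 5.16 ± 0.01 and 5.03 ± 0.06, each clear of its neighbour. Map3k14 (4.61 ± 0.12) and Traf6 (4.55 ± 0.14) overlapped there. In ENRI, Traf2, Map3k14, Traf3 and Traf6 overlapped each with the next, from 4.24 ± 0.06 down to 3.94 ± 0.21. In WENRC, Traf6 was second at 4.32 ± 0.12, clear of Tnfrsf11a but overlapping Birc2 at place 4, and Traf3, Map3k14 and Tnfrsf11b overlapped each with the next at 3.70 ± 0.16, 3.62 ± 0.12 and 3.52 ± 0.22. Traf5 (1.35 to 1.39) and Traf1 (-1.16 to -0.10) were at places 9 and 10 in all 3 cultures. Within a library, the receptor exceeded the decoy by 0.30 and 0.34 in RANKL and by 0.81 and 0.54 in WENRC, per kb. In ENRI the difference was -0.62 and 2.28, so that per kb the decoy was higher in ENRI 1 and the receptor in ENRI 2. Without division by gene length the receptor was higher in both (9.76 against 9.10, and 9.45 against 5.91).

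**Figure D3:**
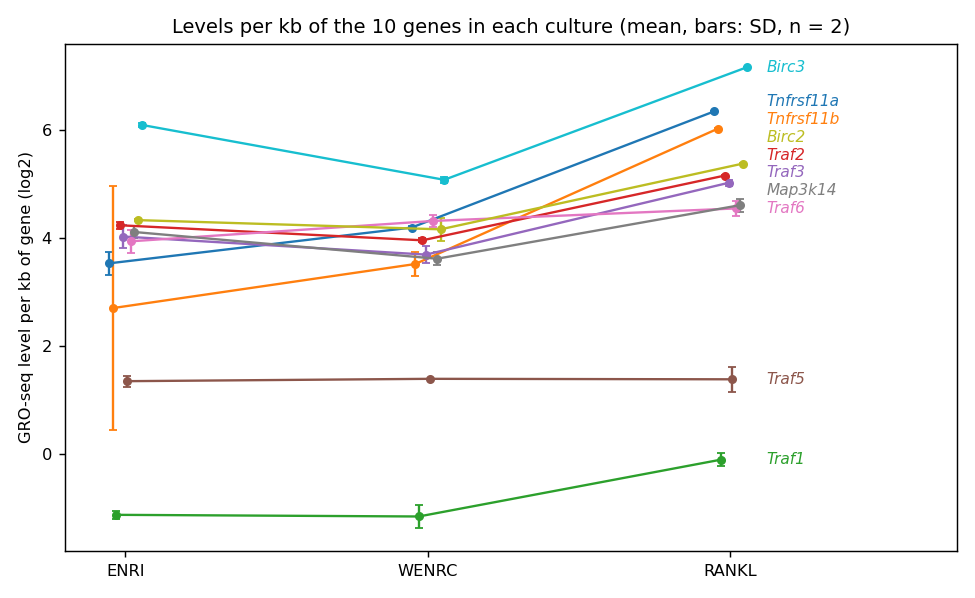
Level per kb of gene (log2, y axis) of the 10 genes in ENRI, WENRC and RANKL; points are means, bars SDs of 2 libraries, and lines join the points of 1 gene. Tnfrsf11a moves from place 7 in ENRI (3.54) to second in RANKL (6.35), while Traf5 stays between 1.35 and 1.39.

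All 10 genes passed the filter on low values, Traf1 through RANKL alone. The first comparison asks which of them are transcribed differently in M cell and enterocyte cultures. Over ENRI, 6 of the 10 were called higher in RANKL and 0 lower, against 10.4% of all tested genes called higher and 10.5% called lower. The 6 were Tnfrsf11a, Traf1, Traf2, Traf3, Birc2 and Birc3. Without Traf1, whose entry into the test depended on RANKL, the count was 5 of 9, with a median change of 1.0. At an unadjusted p under 0.05, limma counted 9 of the 10 in either direction, against 36.6% of all tested genes, and the authors' deposited table called 6, all higher (background 8.55% higher, 19.6% in either direction). The libraries of RANKL lay above those of ENRI without overlap for 9 genes, Traf1 among them, against 32.4% of all tested. The median change of the 10 was 1.01, against -0.00 for all genes. The count fell to 1 (Tnfrsf11a) without RANKL 1 or without RANKL 2, where 111 and 64 genes were called in all.

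The second comparison sets the M cell culture against the stem cell culture. Over WENRC, 7 of the 10 were called higher and 0 lower, against 8.53% called higher and 3.62% called lower over all tested genes. Map3k14 joined the 6 genes called over ENRI. Without Traf1 the count was 6 of 9, with a median change of 1.22. The unadjusted count was 8 of the 10, against 29.3% of all tested genes, and the authors' deposited table called 8, all higher (background 16.7% higher, 27.8% in either direction), as did limma with only the 4 compared libraries (background 31.4% in either direction). The libraries did not overlap for 9 genes, Traf1 among them, RANKL being higher, against 34.1% of all tested. The median change was 1.21, against -0.01 for all genes. With libraries recentred by upper quartile, the median over all genes was -0.12 and higher calls made up 53.3% of all calls in place of 70.2% (58.7% with quantile normalization). Of the 10 genes, 6 were then called, all higher (background 14.1% in either direction). Without WENRC 1 the count was 3 (Tnfrsf11a, Birc2 and Birc3), and without WENRC 2 it was 2 (Tnfrsf11a and Birc3), where 1.58% and 1.3% of all tested genes were called. Without RANKL 1 or RANKL 2 limma called 0 of the 10 (7 at an unadjusted p under 0.05 in each) and 0 of all genes. The comparisons over ENRI and over WENRC share the RANKL libraries. Both RANKL libraries lay above all 4 others for 9 of the 10 genes, Traf5 being the exception, against 20.3% of all tested genes. For Traf1, which is among the 9, the filter fixed this in advance. The 6 genes called over ENRI, Traf1 among them, were called over both cultures, against 4.99% of all tested.

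The third comparison, WENRC with ENRI, used cultures that carry the same mouse numbers. Of the 10 genes, 1 was called higher in WENRC (Tnfrsf11a) and 1 lower (Birc3), against 4.85% and 9.74% of all tested genes. With the replicate number as a block in all 6 libraries, Birc3 alone was called (background 9.09% in either direction). With the mouse as a block in the 4 ENRI and WENRC libraries, limma called 0 of the 10 and 124 of all genes. The unadjusted count was 3 of the 10, against 32.5% of all tested genes. The authors' deposited table also called Birc3 alone (background 12.5% in either direction, 3.3% higher and 9.24% lower). Libraries did not overlap for 7 genes, of which 2 were higher in WENRC (Tnfrsf11a, Traf6) and 5 lower, against 29.3% and 29.2% of all tested. The change had the same direction in both mice for 7 of the 10, against 74.5%. The median change was -0.10, against -0.01 for all genes. With the 4 ENRI and WENRC libraries alone, limma called 0 of the 10 (3 at an unadjusted p under 0.05), and 0 of all genes. The count was also 0 without either RANKL library (3 unadjusted in each), without WENRC 1 (3 unadjusted) and without WENRC 2 (2 unadjusted); it was 5 without ENRI 1 and 3 without ENRI 2, where 40.1% and 18.8% of all tested genes were called. In the same comparison 7 of 7 stem cell markers were called higher in WENRC, and 7 of 9 enterocyte and 4 of 4 goblet cell markers lower. The part of these cell types in the values of Tnfrsf11a and Birc3 was not tested.

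Other genes of the pathway were followed in a list of 43, of which 42 were tested. The ligand gene Tnfsf11 was below the filter, with values from 2.28 to 2.79 over the 6 libraries. Over ENRI, 13 of the 42 were called higher in RANKL and 3 lower, against 10.4% and 10.5% of all tested genes. Over WENRC, 14 were called higher and 1 lower, against 8.53% and 3.62%. The median changes were 0.26 and 0.42, against -0.00 and -0.01 for all genes. In the authors' deposited table, 12 were higher and 4 lower over ENRI (background 8.55% and 11%), and 21 higher and 2 lower over WENRC (background 16.7% and 11.1%). Tnfsf10, the gene of TRAIL, another ligand that osteoprotegerin binds, rose most, from 6.67 and 7.88 in ENRI and 7.49 and 7.77 in WENRC to 10.58 and 10.63 in RANKL (changes 3.33 and 2.97, SE 0.38 in each, limma FDR 0.00474 and 0.00846). The inhibitor genes followed: over ENRI, Nfkbia rose by 1.94 (SE 0.14), Tnip1 by 1.93 (SE 0.13) and Nfkbie by 1.89 (SE 0.22), with limma FDRs of 0.00204, 0.00184 and 0.00477. Over WENRC, Tnip1 rose by 2.66 (SE 0.13, limma FDR 0.00123), and the subunit genes of the non-canonical branch, Relb and Nfkb2, rose by 2.52 (SE 0.16) and 2.35 (SE 0.16), with limma FDRs of 0.00146 and 0.00181.

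The 3 called lower over ENRI were Fos, Tab3 and Traf4, and the 1 called lower over WENRC was Fos. Fos, an immediate early gene, had 8.85 and 8.78 in RANKL, 10.92 and 11.32 in ENRI and 10.11 and 10.30 in WENRC, with changes of -2.31 (SE 0.17, limma FDR 0.00215) and -1.40 (SE 0.17, limma FDR 0.00816). Tab3, a partner of the kinase TAK1, and Traf4, a TRAF outside the receptor's usual set, fell over ENRI by 0.73 (SE 0.18, limma FDR 0.0394) and by 0.67 (SE 0.14, limma FDR 0.0223). The Tab3 call was lost with the replicate block (0.0676), without the variance trend (0.0516) and without ENRI 2 (0.0508), and also without RANKL 1 (0.225) or RANKL 2 (0.213). That of Traf4 was lost with only the compared libraries (limma FDR 0.0526). Leaving out either WENRC library is in effect this same fit. The Traf4 call was also lost without RANKL 1 or RANKL 2, with changes of -0.62 and -0.71. Between WENRC and ENRI, 0 of the 42 were called higher and 9 lower, against 4.85% and 9.74% of all tested genes (14 in either direction at an unadjusted p under 0.05, limma, against 32.5%). The 9 were led by the kinase gene Chuk at -1.11 (SE 0.21, limma FDR 0.0246), Relb at -1.08 (SE 0.16, limma FDR 0.0143), Tab3 at -0.98 (SE 0.18, limma FDR 0.0245) and the deubiquitinase gene Cyld at -0.95 (SE 0.13, limma FDR 0.0127). With the replicate number as a block in all 6 libraries 6 of the 9 were called, and Nfkb2, Ripk1 and Tnip1 were not. With the mouse as a block in the 4 ENRI and WENRC libraries, Chuk, Relb, Tab3 and Cyld were not called (limma FDR 0.102, 0.0820, 0.106 and 0.0874). The 9 were not called with the 4 ENRI and WENRC libraries alone, where limma called 0 of the list (11 unadjusted). Without RANKL 1 the list had 3 calls over ENRI and without RANKL 2 it had 0 (16 unadjusted); over WENRC it had 0 without either (18 unadjusted without RANKL 1, 16 without RANKL 2), 6 without WENRC 1 and 5 without WENRC 2. In WENRC against ENRI the 9 calls were also lost without either WENRC library. Leaving out either RANKL library there is in effect the fit of the 4 ENRI and WENRC libraries alone.

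**Figure D4:**
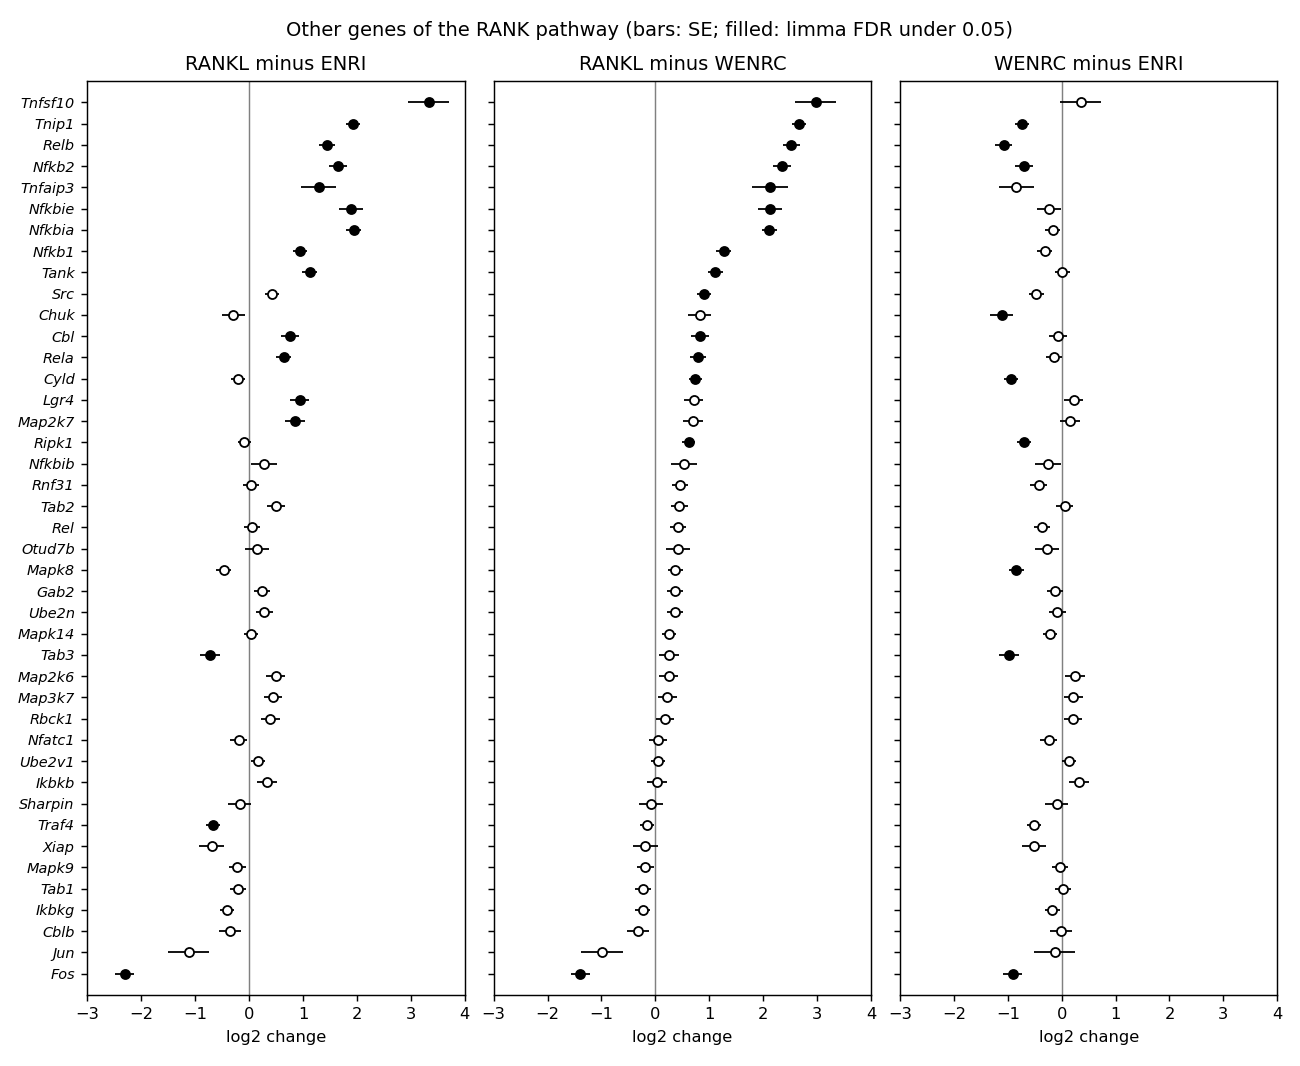
Log2 change (x axis) of the 42 tested pathway genes in the 3 comparisons, ordered by the change of RANKL over WENRC; bars are SEs and filled points have a limma FDR under 0.05. Tnfsf10 is at the top (2.97) and Fos at the bottom (-1.40), and the filled points of WENRC minus ENRI all lie below 0.

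The pattern of Tnfrsf11a over the 6 libraries was most like those of Trim43c, Mycl, Kdm2b, Fyb and Syt7. Likeness was the Euclidean distance between the 6 log2 values after each gene was centred on its own mean, and these 5 had distances of 0.303, 0.308, 0.330, 0.416 and 0.431. For Tnfrsf11b the nearest were Anxa5 (0.724), Stx11 (0.917), Gsap (1.0), Arl4c (1.09) and Sox4 (1.15). Anxa5 is on the M cell list used here. All 5 had a lower value in ENRI 2 than in ENRI 1, which follows from their choice by likeness over these same values. Among the 10 genes, the nearest to Tnfrsf11a was Birc2, at 1.80. These are descriptions over 6 libraries of 3 cultures.

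H3K27me3 was listed by the authors as regions higher in RANKL than in WENRC or the reverse, with no replicate check. The tables held 35798 and 13607 regions. Of the 10 genes, 7 had no region assigned to them in either table: Tnfrsf11a, Tnfrsf11b, Traf2, Traf3, Traf5, Birc2 and Birc3. By coordinates, no region of either table overlapped these 7 genes or the 5 kb before them. Regions were assigned to 3 genes in the RANKL-higher table, with 14 in all, and to 1 gene in the WENRC-higher table, with 4. Over all tested genes, 32.3% had a RANKL-higher and 23.3% a WENRC-higher region assigned, and 18.0% and 5.01% had one within 5 kb of the start. The tables list differences only, so that a gene without a region may carry the mark equally in both cultures or not at all.

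Traf1 had regions of both directions. The WENRC-higher regions nearest to its start were on chromosome 2, at 34818307 to 34818807 (intergenic, centre at -1265 bp from the start, 18.9 scaled WENRC tags against 5 RANKL tags, fold 3.78) and 34808963 to 34809617 (intron 5 of Traf1, 8002 bp after the start, 26.1 against 8, fold 3.26), with 2 more inside introns of the upstream gene Hc at -39201 and -47862 bp (folds 3.75 and 2.7). The 2 RANKL-higher regions lay at and past the gene's end, at 34796948 to 34797448 on the transcription end site (26 RANKL tags against 10.8, fold 2.41) and 34794580 to 34795080 beyond it (20 against 7.2, fold 2.78). Each of these counts is small, and all folds are the authors'. Traf1 transcription was higher in RANKL, as given above.

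Traf6 had 9 RANKL-higher regions and 0 WENRC-higher regions. The nearest to its start was chromosome 2, 101516830 to 101517594, intergenic, with its centre at -1365 bp (34 RANKL tags against 13.5, fold 2.52). A longer region followed at 101511430 to 101513929 (2499 bp, 135 tags against 59.4, fold 2.27), and another lay at 101507765 to 101508663 (fold 3.42). The other 6 lay 28697 to 59585 bp after the start, beyond the gene's end, and 5 of them were inside the neighbouring gene Prr5l. They had folds of 2.08 to 4.04. Map3k14 had 3 RANKL-higher regions, all intergenic, with centres at -12223 to -25606 bp from its start, with folds of 2.15 to 3.17. Neither gene fell in RANKL against WENRC, where Traf6 had a change of 0.23 (limma FDR 0.421) and Map3k14 rose by 0.99.

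**Figure D5:**
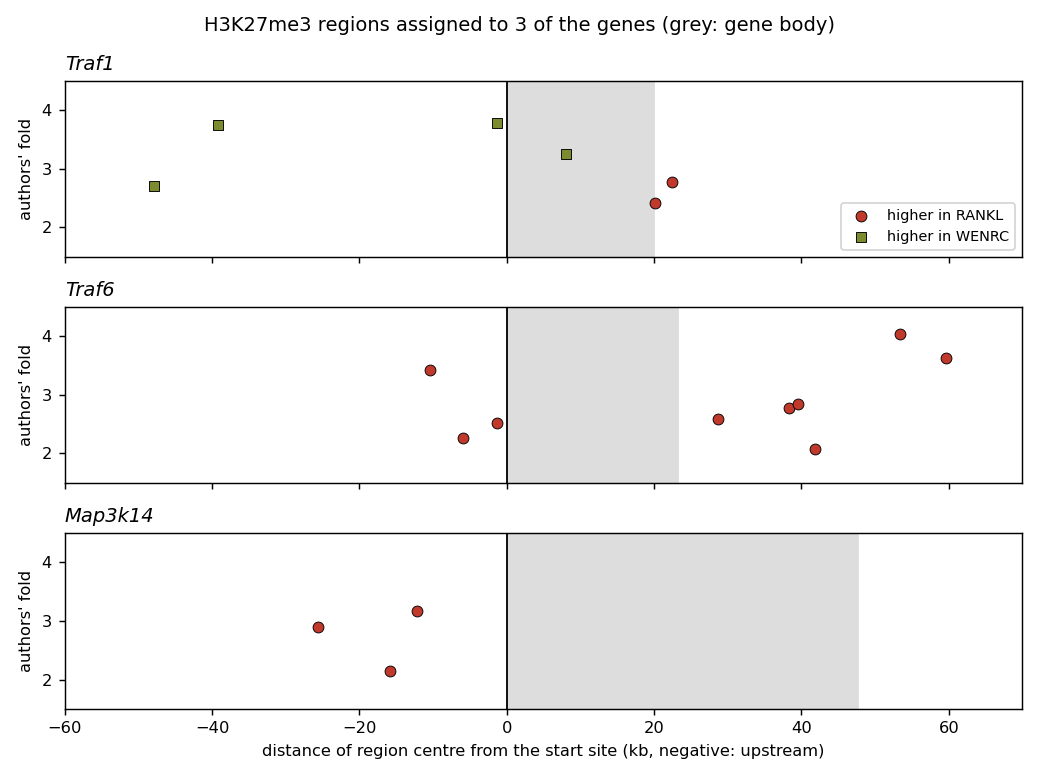
H3K27me3 regions assigned to Traf1, Traf6 and Map3k14, by the distance of their centre from the start site (kb, x axis, negative upstream) and the authors' fold (y axis); grey marks the gene body, circles are higher in RANKL and squares higher in WENRC. In Traf1 the 4 squares lie between -47.9 and 8.0 kb and the 2 circles at 20.1 and 22.5 kb.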

How the data were processed

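GRO-seq and H3K27me3 ChIP-seq tables of the authors were used. Bowtie2 2.3.4.1, HOMER and DESeq2 are named in the submitters' processing notes, with genome build mm9. Per the file headers, reads were summed over whole RefSeq genes with HOMER and passed to getDiffExpression.pl. Values were deposited on a log2 scale after normalization; their transform is not given in the sources used here, and read depth is unknown. The authors' deposited table also holds log2 changes with a p-value and adjusted p-value per pair of cultures; their sign was turned to first minus second. H3K27me3 regions were called by the authors in 1 culture against the other, with tag counts as deposited for pooled RANKL (32.7 M tags) and, as a signal scaled by 0.9 by the authors, for WENRC. Folds, given by the authors as the ratio of one culture's tags to the other's, are 2 or more.

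Genes at 0 in all 6 libraries (2131) were left out. limma 3.58.1 (R 4.3.3), with a variance trend, was run on the deposited log2 values without a pseudocount, in 1 fit of 3 group means. Genes with a value of at least 3.32 (log2 of 10) in at least 2 libraries were tested (16563), with two-sided p-values, Benjamini-Hochberg adjustment (FDR) over all of them and calls under 0.05. On simulated data for 16563 genes, 95.5% of genes changed by 2 and 23.9% of those changed by 1 (log2) were recovered in RANKL minus ENRI, with 7.59% of calls on unchanged genes. The simulation changed few genes and gave each gene 1 spread for all 6 libraries. In the data ENRI replicates lay further apart than RANKL replicates (SD of their difference 0.699 against 0.220), so these rates may not hold here. Deviations of ENRI and WENRC libraries with the same mouse number correlated (r of 0.41 across genes), and the labels give the mouse as shared. Mouse and date, as the header gives them, cannot be told apart.

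The 10 genes and all lists were chosen with earlier results of these data known. Named pathway genes are the 4 largest rises and 4 largest falls among calls. Promoter sequences are RefSeq, GRCm38.p6. Alternatives were the libraries in the fit, a replicate block, 2 scalings, no filter, no trend and leaving out each library. The authors' calls and regions by coordinates were added after seeing the data.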

Additional observations from a re-analysis of the deposited data

Results flagged for a closer look

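The change of WENRC against ENRI had opposite signs in the 2 mice for 3 of the 10 genes, and the difference was not tested, since each mouse has 1 library of each culture. Tnfrsf11b was lower in WENRC by -0.94 in mouse 1 and higher by 2.57 in mouse 2. The signs also differed for Traf1 (-0.13 and 0.07) and for Traf5 (0.11 and -0.03), where both values are small. Over all tested genes, 74.5% had the same direction in both mice.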

How the results depend on the processing

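Among the 10 genes, a change reversed for Traf5 over ENRI (-0.13 to 0.20 without single libraries), Traf5 over WENRC (-0.17 to 0.15 without single libraries, 0.0029 with quantile normalization), Traf5 in WENRC against ENRI (-0.026 to 0.11), Traf1 in WENRC against ENRI (-0.18 to 0.12, and 0.082 with upper quartile recentring) and Tnfrsf11b in WENRC against ENRI (-0.78 to 2.42); the cause was not tested. Calls among the 10 without single libraries ran from 1 to 8 over ENRI, 0 to 8 over WENRC and 0 to 5 in WENRC against ENRI. In the last, 0 were called with the 4 libraries alone, also with the replicate block (2 at an unadjusted p under 0.05, limma), and 1 with the block in 6 libraries, without the filter, without the trend and in the authors' deposited table. Pathway calls ran from 0 to 26, 0 to 27 and 0 to 15 without single libraries; with only the compared libraries they were 27 over WENRC and 0 in WENRC against ENRI, and the authors' table had 23 over WENRC. All-gene calls without single libraries ran from 64 to 6966, 0 to 5176 and 0 to 6650 (limma; at an unadjusted p under 0.05, 2702 and 2486 without RANKL 1 and RANKL 2 over WENRC, and 4078, 4075 and 3329 in WENRC against ENRI without RANKL 1, RANKL 2 and WENRC 2). With only the compared libraries they were 1925, 5194 and 0 (4074 unadjusted), 124 with the block in those 4 and 1506 with the block in all 6; the authors' deposited table had 4604 over WENRC. RANKL shares only a replicate number with the other cultures (r of deviations -0.20 with ENRI and -0.32 with WENRC). In all 6 libraries the replicate block changed no other call of the 10 than that of Tnfrsf11a in WENRC against ENRI. H3K27me3 regions of the 10 genes within 5 kb of the start numbered 1 in each table, against 14 and 4 at any distance, 0 and 0 at a fold of at least 4, and 3 and 2 by coordinates. Each comparison rests on 2 libraries a culture, and read depth is unknown for GRO-seq.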

Other observations

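Of 9 other receptors that use Traf2 or Traf3, 8 were tested, and 2 were called higher in RANKL than in ENRI and 1 higher than in WENRC (background 10.4% and 8.53%). These were named after their values were seen. Tnfrsf8, the gene of CD30, had 7.32 and 6.67 in RANKL, 5.02 and 5.23 in ENRI and 4.95 and 5.51 in WENRC, with changes of 1.87 (SE 0.31, limma FDR 0.0130) and 1.76 (SE 0.31, limma FDR 0.0203). Tnfrsf1b, a TNF receptor, had 9.33 and 9.37 in RANKL, 7.99 and 5.90 in ENRI and 8.22 and 8.11 in WENRC, so that its ENRI libraries were split in the same order as those of Tnfrsf11b. Its change was 2.41 over ENRI (limma FDR 0.0413) and 1.19 over WENRC (limma FDR 0.262). Tnfrsf1a, the other TNF receptor gene, was the 1 receptor called between WENRC and ENRI, where it fell by 1.49 (limma FDR 0.0144). Cd40 was near the filter (3.21 to 3.85 over the 6 libraries), and Ltbr showed changes of -0.29 over ENRI and 0.24 over WENRC (limma FDR 0.246 and 0.376).

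The other markers also differed between cultures. In RANKL against WENRC, 5 of 9 enterocyte markers were called higher and 0 lower, and against ENRI 4 were lower and 0 higher. Of 7 stem cell markers, 5 were called higher in RANKL than in ENRI, and 1 was higher and 1 lower than in WENRC. Of 4 goblet cell markers, RANKL had 3 called above WENRC and 0 called above ENRI. Of 4 Paneth markers, 2 were called higher in RANKL in each comparison. The part of these cells in the values of the 10 genes was not tested.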
